A study of Homo sapiens with 48 samples.

Results

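The 10 genes described here encode enzymes of serine, asparagine, folate one-carbon and proline metabolism: PHGDH, PSAT1, PSPH, SHMT1, SHMT2, MTHFD2, ALDH1L2, ASNS, ALDH18A1 and PYCR1. They were chosen by name, with earlier results of these data known, as the rows of the count tables that carry these symbols. Counts of called enzymes below thus describe a set that was not picked independently of the data. All 10 were found among 19923 protein-coding genes, and all 10 passed the filter on low counts in both cell lines. Poly(A) RNA had been sequenced from Kelly and NGP, human neuroblastoma cell lines that the labels give as MYCN-amplified and of WT genotype. Cells received DMSO, the solvent, or 8 µM STM2457, a small-molecule inhibitor of METTL3, the enzyme that writes the m6A mark on mRNA, for 3 or 6 days. RNA was taken after a further 0, 3 or 6 h of actinomycin D at 10 µg/ml, which blocks transcription, so the 0 h libraries hold the level before the block. All cultures had the same serum-supplemented medium, per the labels. The 48 libraries come in 24 groups of 2. Series of 4 values below follow the order Kelly 3 days, Kelly 6 days, NGP 3 days, NGP 6 days. The labels do not say whether the 2 libraries of a group are separate cultures, so p-values measure only the spread between these libraries, which may be technical.

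Libraries held 11139550 to 21942238 fragments in genes, of which the 10 enzymes took 12286 to 59908. Markers of adrenergic neuroblastoma cells were present in both lines, with 10 of 10 at a mean of at least 1 CPM in Kelly and 9 of 10 in NGP, where TH was below it. No leukocyte marker of 4 reached 1 CPM in either line, and 3 of 5 fibroblast markers in Kelly and 4 of 5 in NGP did. CPM is a gene's count scaled to a common library size after TMM normalization. Log2 differences are given ± SE from edgeR's quasi-likelihood test, and a gene is called higher or lower where the Benjamini-Hochberg adjusted p over all genes tested was under 0.05. TMM assumes that most genes keep their share of the library, so each difference is read against most other genes. In bulk RNA, fewer cells with a transcript and less of it per cell cannot be told apart.

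The libraries of 1 control condition stand apart for most of these enzymes: those of NGP at 6 days after 0 h and after 3 h of actinomycin D. At 0 h the summed level of the 10 enzymes was 2361 and 2419 CPM in the NGP DMSO libraries at 6 days, against 822 to 1332 CPM in the other 14 libraries. At 3 h it was 3151 and 3049 CPM, against 1348 to 1770 in the other NGP libraries. At 6 h it was 1901 and 1963 CPM, below the 2135 and 2097 of NGP DMSO at 3 days. Comparisons that use NGP DMSO at 6 days at 0 or 3 h rest on these libraries that stand apart. The STM2457 difference at 6 h does not use them and is given after the single enzymes.

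Cells make serine from the glycolytic intermediate 3-phosphoglycerate in a short pathway of PHGDH, PSAT1 and PSPH. SHMT1 in the cytosol and SHMT2 in mitochondria split serine into glycine and a folate-bound carbon unit, which MTHFD2 and ALDH1L2 handle further in mitochondria and which feeds nucleotide synthesis. ASNS makes asparagine from aspartate and glutamine, and ALDH18A1 and PYCR1 catalyse the first and the last step from glutamate to proline. Many of these genes are known targets of ATF4, the transcription factor of the integrated stress response, and several are reported to be highly expressed in neuroblastoma with MYCN amplification.

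In the GRCh38 annotation PHGDH lies at chr1:119648411-119744226, PSAT1 at chr9:78297125-78330093, PSPH at chr7:56011051-56051604 (minus strand), SHMT1 at chr17:18327860-18363563 (minus strand) and SHMT2 at chr12:57229573-57234935. MTHFD2 lies at chr2:74198610-74217565, ALDH1L2 at chr12:105019784-105107643 (minus strand), ASNS at chr7:97851677-97872542 (minus strand), ALDH18A1 at chr10:95605941-95656711 (minus strand) and PYCR1 at chr17:81932384-81942412 (minus strand). Counts are of fragments in the exons of each gene.

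The best known regulatory site among these genes is the amino acid response element of ASNS, shown here because ASNS had the largest STM2457 effect of the 10 enzymes in NGP at 6 days. The promoter table from RefSeq (GRCh38.p14, 250 bases before to 50 after each start) has 7 entries for 6 of the 10 genes (ALDH18A1, ASNS, MTHFD2, PHGDH, PSAT1 and SHMT1). The letters TGATGNAA, where N is any base, were searched on both strands. They were found once, 68 bases upstream of 1 of the 2 ASNS starts, and in 3.62% of all 35116 promoters in the table. The 30 bases around the match lie at chr7:97872458-97872487 on the minus strand, with the match in capitals. The window upstream of this start holds exon bases of another ASNS isoform, so only these bases are shown:
ASNS: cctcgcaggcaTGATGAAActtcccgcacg
The other 6 windows do not hold these letters. The palindromic E-box CACGTG, a motif added after the expression values had been seen, was found in the ALDH18A1 window alone, 136 bases upstream of its start, and in 7.26% of all promoters. A match describes letters and not binding.

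In the solvent control the enzymes differed widely in level. Levels per kilobase divide by all annotated exon bases of a gene, which need not be the length of its transcripts. These were 9217 bases for PHGDH and 2206 for PSAT1, so the order of the enzymes depends on this length. In CPM, without this division, PHGDH was the highest of the enzymes in DMSO at 3 days in both lines. Per kilobase of exon, in DMSO at 3 days, MTHFD2 was the highest in Kelly with 47.2 ± 3.53 CPM per kilobase (SD, n = 2), above 96.2% of the genes tested. PHGDH at 29.8 ± 3.90, ALDH18A1 at 28.9 ± 2.17, PSAT1 at 27.5 ± 4.18 and PYCR1 at 25.6 ± 1.47 came next and did not differ beyond their spread. SHMT2 at 20.2 ± 0.477, PSPH at 19.7 ± 0.776 and ASNS at 19.1 ± 2.17 lay within their spread of one another, and SHMT1 at 5.73 ± 0.718 and ALDH1L2 at 4.06 ± 0.251 were the lowest. In NGP DMSO at 3 days, PSAT1 at 49.4 ± 0.827 CPM per kilobase, MTHFD2 at 47.3 ± 0.320 and SHMT2 at 46.5 ± 3.10 led, and SHMT1 at 7.16 ± 0.615 and ALDH1L2 at 6.34 ± 1.37 were again the lowest. MTHFD2 shares 33.6% of its exon bases with SLC4A5 and AC006030.1 on the other strand, and PYCR1 14.1% with MYADML2, so their counts are less certain than those of the other members, which share at most 2.91%. ASNS, PSAT1, PSPH, SHMT1 and MTHFD2 also have 1 to 7 named pseudogenes each.

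**Figure D1:**
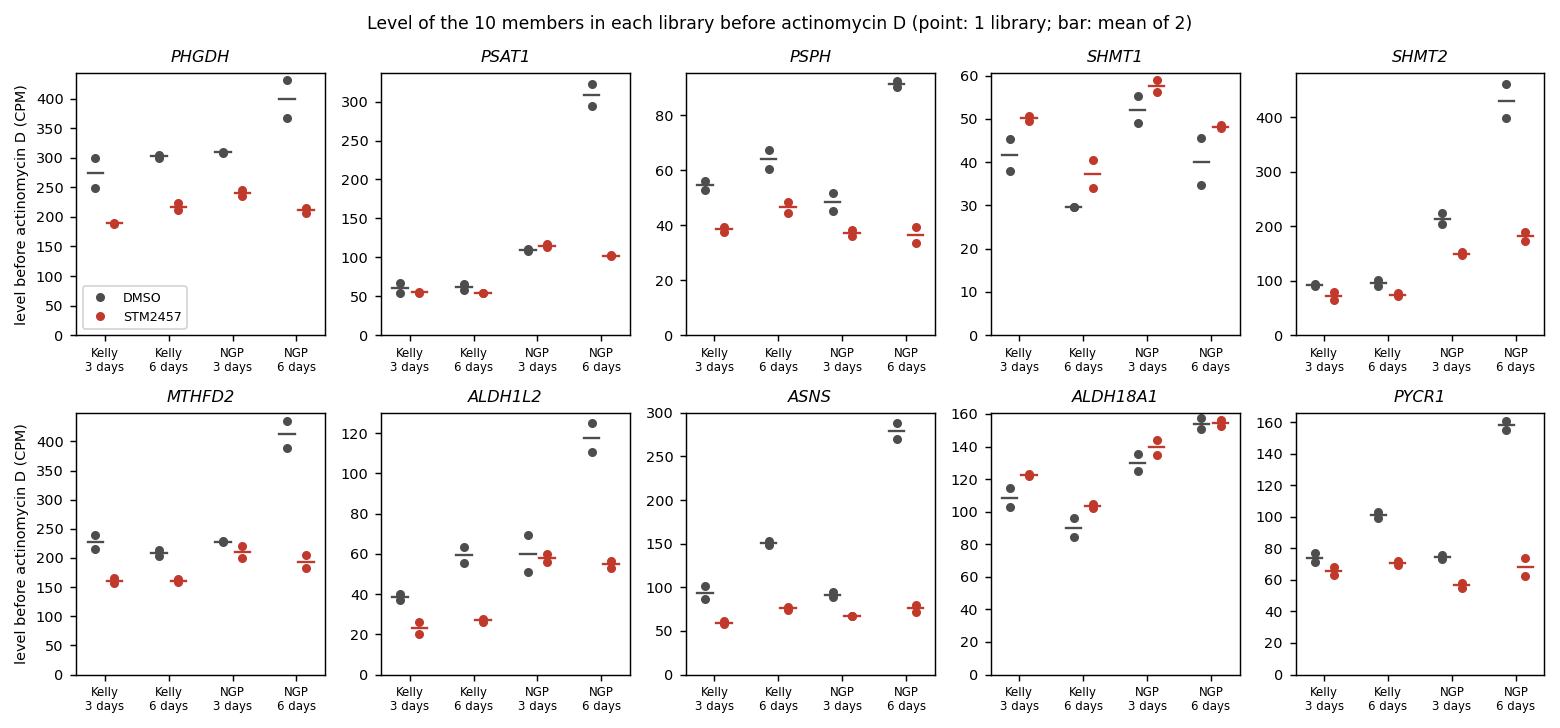
Level in CPM (vertical axes, each from 0) of each enzyme in the 16 libraries at 0 h of actinomycin D, by line and duration, with DMSO in grey and STM2457 in red. Each point is 1 library and each bar the mean of 2. Both NGP DMSO libraries at 6 days lie above all other NGP libraries for 8 of the 10 enzymes, and SHMT1 and ALDH18A1 do not show this. The share of all genes with this pattern was not counted.

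The lines were compared in DMSO at 0 h in a joint fit. At 3 days 3 of the 10 enzymes were higher in NGP than in Kelly and none was lower, against 30.0% of all genes called. The 3 were SHMT2 (1.20 ± 0.10), PSAT1 (0.84 ± 0.12) and ALDH1L2 (0.64 ± 0.17). Levels of SHMT2 were 91.1 and 94.2 CPM in Kelly and 203 and 223 in NGP, without overlap. ASNS at -0.03, MTHFD2 at 0.00 and PYCR1 at 0.01 lay within 1 SE of no difference. The ALDH1L2 call was lost without NGP DMSO replicate 1 (0.39) and PHGDH gained one without Kelly DMSO replicate 2 (0.31). With RLE size factors or with DESeq2 5 enzymes were called, and with ERCC scaling 9. At 6 days 9 of 10 were higher in NGP, against 31.6% of all genes, led by PSAT1 (2.31 ± 0.12) and SHMT2 (2.16 ± 0.10), with SHMT1 at 0.43 ± 0.18 (adjusted p = 0.0595 by edgeR) the only one not called. SHMT1 was called without NGP DMSO replicate 1 (0.61), and PSPH was not without Kelly DMSO replicate 2 (0.43). That comparison uses the NGP DMSO 6-day libraries that stand apart.

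STM2457 was compared with DMSO at 0 h to ask which transcripts differ in level after METTL3 inhibition. None of the 10 enzymes was called higher under STM2457. Of 10, 4 were called lower in Kelly and 4 in NGP after 3 days, and 5 in Kelly and 8 in NGP after 6. Over all genes 1.68%, 3.97%, 3.70% and 7.99% were called. The median of the 10 enzymes was -0.44, -0.39, -0.25 and -1.16, while that of all genes was between 0 and 0.02. ASNS and PHGDH were called lower in all 4 comparisons. The NGP values at 6 days, here and for each enzyme below, rest on the DMSO libraries that stand apart. At 6 h of actinomycin D, where those libraries are not used, 4 enzymes were lower there, against 9.16% of all genes. With scaling on the ERCC spike-ins the enzymes' median was 0.25 to 1.18 below that of all genes. Scaling shifts all genes of a library alike, so it could hardly change this distance and does not test it. ERCC scaling shifted the median of all genes by 0.38, -0.21, 0.10 and -0.02. In Kelly at 3 days the enzymes' own median was then -0.04. There 2 enzymes, SHMT1 and ALDH18A1, were called higher and none lower, with ASNS at -0.26 and PHGDH at -0.14. In NGP at 3 days 2 were then called lower.

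**Figure D2:**
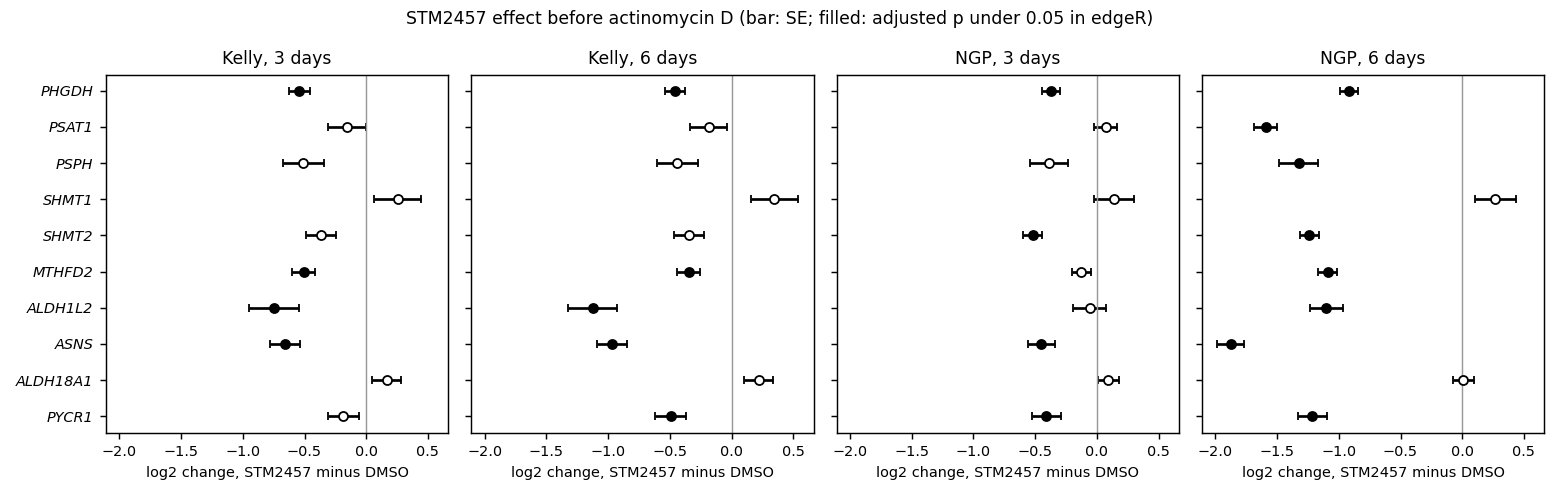
Log2 difference between STM2457 and DMSO at 0 h (horizontal axis) for each enzyme, 1 panel for each line and duration. Points are estimates, bars are SEs, and filled points passed an adjusted p of 0.05; in NGP at 6 days the filled points lie between -1.88 and -0.91, and SHMT1 and ALDH18A1 stay to the right of 0 in all 4 panels without passing.

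Of the serine synthesis enzymes, PHGDH, which catalyses the first and committed step, fell in all 4 comparisons. In Kelly at 3 days it was at 249 and 299.8 CPM in the DMSO libraries and 189.9 and 189 in STM2457, and in Kelly at 6 days at 300.1 and 304 against 223 and 211. The treated libraries lay below the controls each time, with log2 differences of -0.54 ± 0.08 and -0.46 ± 0.08 (adjusted p = 5.39e-07 and 1.82e-05 by edgeR). In NGP the values were 309.6 and 308 CPM against 235 and 245 at 3 days (-0.37 ± 0.07, adjusted p = 0.000279 by edgeR) and 367 and 431 against 206 and 216 at 6 days (-0.91 ± 0.07, adjusted p = 2.09e-17). The STM2457 level was thus 68.6%, 72.8%, 77.3% and 53.0% of the DMSO level.

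PSAT1, the aminotransferase of the second step, behaved otherwise. Its libraries in Kelly read 67.3 and 54.2 CPM in DMSO and 56.1 and 53.8 in STM2457 at 3 days, so the groups overlapped, and its differences of -0.15 ± 0.15 and -0.19 ± 0.15 in Kelly and 0.07 ± 0.09 in NGP at 3 days were not called. In NGP at 6 days it was at 323 and 294 CPM in DMSO and 103 and 102 in STM2457, a difference of -1.59 ± 0.09 (adjusted p = 1.58e-24 by edgeR). PSAT1 in STM2457 at 6 days lay close to its level in NGP at 3 days, which was 110.3 and 108 CPM in DMSO and 114 and 117 in STM2457. PSPH, the phosphatase that releases serine, was lower in every treated library than in every control library of the same line and duration. Only NGP at 6 days passed, with 90.4 and 92.3 CPM against 33.6 and 39.2 (-1.33 ± 0.16, adjusted p = 1.87e-10 by edgeR), while the other differences were -0.51, -0.44 and -0.39. DESeq2 called PSPH lower in Kelly as well, by -0.52 and -0.46.

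Of the folate enzymes, the mitochondrial SHMT2, MTHFD2 and ALDH1L2 were called lower in 2, 3 and 3 of the 4 comparisons, and the cytosolic SHMT1 in none. SHMT2, the mitochondrial serine hydroxymethyltransferase, fell in NGP, from 203 and 223 to 146 and 153 CPM at 3 days (-0.52 ± 0.08, adjusted p = 1.67e-06 by edgeR) and from 399 and 461 to 174 and 189.8 at 6 days (-1.24 ± 0.08, adjusted p = 1.13e-22). In Kelly it was at -0.37 ± 0.12 and -0.35 ± 0.12 and not called by edgeR, while DESeq2 called it (-0.38 and -0.36). SHMT1, its cytosolic counterpart, was at 0.26, 0.35, 0.14 and 0.27, with SEs of 0.16 to 0.19, and was called in none. The sign of SHMT1 was thus opposite to that of SHMT2, except with ERCC scaling in Kelly at 3 days (0.66 and 0.03). With that scaling SHMT1 was called higher there, while with TMM scaling its own difference at 0 h was not called.

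MTHFD2, the mitochondrial methylenetetrahydrofolate dehydrogenase, was called lower at both durations in Kelly and at 6 days in NGP. Its Kelly libraries at 3 days read 239.6 and 215 CPM in DMSO and 157 and 165 in STM2457 (-0.51 ± 0.09, adjusted p = 6.22e-05 by edgeR), and at 6 days 204 and 213 against 164 and 159 (-0.35 ± 0.09, adjusted p = 0.0107). In NGP it was at -0.13 ± 0.08 at 3 days, and at 6 days it went from 436 and 389 to 182 and 204 CPM (-1.09 ± 0.08). The call in Kelly at 6 days was lost without DMSO replicate 2 (-0.34) or STM2457 replicate 2 (-0.35), and by limma-voom (-0.34).

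ALDH1L2, the mitochondrial formyltetrahydrofolate dehydrogenase, had the largest STM2457 difference of the 10 enzymes in Kelly at both durations. Its libraries in Kelly at 6 days read 63.6 and 55.4 CPM in DMSO and 27.5 and 26.2 in STM2457 (-1.13 ± 0.20, adjusted p = 7.24e-06 by edgeR), and at 3 days 40.2 and 36.8 against 20.1 and 26.0 (-0.75 ± 0.20, adjusted p = 0.0227). The 3-day call was lost in 3 of 4 refits with 1 library left out (-0.67 without DMSO replicate 1, -0.80 without DMSO replicate 2 and -0.57 without STM2457 replicate 1) and by limma-voom (-0.76). In NGP at 3 days the groups overlapped, with 69.3 and 50.9 CPM in DMSO and 56.0 and 60.1 in STM2457 (-0.06 ± 0.13). At 6 days they did not, with 110.5 and 125 against 56.6 and 52.9 (-1.10 ± 0.13, adjusted p = 5.27e-10 by edgeR).

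ASNS, asparagine synthetase, fell in all 4 comparisons. Its DMSO libraries read 86.1 and 101 CPM in Kelly at 3 days, 153 and 148 at 6 days, and in NGP 94.3 and 88.6 at 3 days and 289 and 269.8 at 6 days. The STM2457 libraries, at 58.0 and 61.0, 77.3 and 74.4, 67.4 and 67.2 and 79.7 and 72.2 CPM in the same order, spanned a far narrower range than the controls. Log2 differences were -0.66 ± 0.12, -0.97 ± 0.12, -0.45 ± 0.11 and -1.88 ± 0.11, so STM2457 left 63.3%, 51.0%, 73.2% and 27.3% of the DMSO level (adjusted p = 3.74e-05, 1.93e-11, 0.00452 and 6.46e-25 by edgeR). The call in NGP at 3 days was lost without DMSO replicate 1 (-0.40) or STM2457 replicate 2 (-0.44), and by limma-voom (-0.45).

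Of the proline enzymes, PYCR1, which makes proline in mitochondria, was called lower in 3 of 4 comparisons and ALDH18A1, which carries out the entry step, in none. PYCR1 went from 99.5 and 103 to 69.5 and 71.9 CPM in Kelly at 6 days (-0.49 ± 0.12), from 76.0 and 73.3 to 58.2 and 54.7 in NGP at 3 days (-0.41 ± 0.12) and from 155 and 161 to 73.7 and 62.2 in NGP at 6 days (-1.21 ± 0.11). Its 3-day difference in Kelly, -0.18 ± 0.13, was not called. The NGP call at 3 days was lost in each of 4 refits with 1 library left out (-0.46 to -0.36) and by limma-voom (-0.41), and the Kelly call at 6 days without DMSO replicate 2 or STM2457 replicate 1 (-0.49 each). ALDH18A1 was at 0.17 ± 0.12, 0.22 ± 0.12, 0.09 ± 0.09 and 0.01 ± 0.09, and its NGP libraries at 6 days overlapped, at 157 and 151 CPM in DMSO and 156 and 153 in STM2457.

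The change from 3 to 6 days was then tested in each treatment. In DMSO, 8 of 10 enzymes were higher at 6 than at 3 days in NGP and 3 of 10 in Kelly, with none lower, against 12.1% and 8.52% of all genes called. The NGP increases were 1.59 for ASNS, 1.48 for PSAT1, 1.06 for PYCR1, 0.99 for SHMT2, 0.95 for ALDH1L2, 0.90 for PSPH, 0.84 for MTHFD2 and 0.35 for PHGDH. The Kelly increases were 0.67 ± 0.12 for ASNS, 0.61 ± 0.20 for ALDH1L2 and 0.43 ± 0.12 for PYCR1. Leaving out 1 library ended the PHGDH call in NGP (0.23 without DMSO 6-day replicate 2), the ALDH1L2 call in Kelly (0.69 and 0.57 without DMSO 3-day replicate 1 or 2, 0.52 without DMSO 6-day replicate 1) and the PYCR1 call in Kelly (0.39 without DMSO 3-day replicate 2, 0.43 without DMSO 6-day replicate 2). With ERCC scaling 6 enzymes were called higher in Kelly, and in NGP 7 were called higher and 1 lower.

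In STM2457 the same change over time was small, in a comparison added after the values had been seen. None of the 10 was called in Kelly, where 2.39% of all genes were and 3 enzymes had an unadjusted p under 0.05. In NGP SHMT2 alone was called (0.27 ± 0.08), against 5.48% of all genes. ASNS was at 0.17 ± 0.11 and PSAT1 at -0.18 ± 0.09 there. From 3 to 6 days in NGP the level thus rose for 8 enzymes in DMSO and for 1 in STM2457.

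The difference of the STM2457 effect between durations was called for 8 of 10 enzymes in NGP, all more negative at 6 days, against 2.80% of all genes. It was called for none in Kelly (0 at an unadjusted p under 0.05, and 0 by DESeq2 or limma-voom), against 0.788% of all genes. In NGP the largest were -1.66 ± 0.13 for PSAT1 and -1.42 ± 0.15 for ASNS. The difference of the effect between lines was called for 7 of 10 enzymes at 6 days, all more negative in NGP, against 1.75% of all genes, and for none at 3 days (2 at an unadjusted p under 0.05, and 0 by DESeq2 or limma-voom), against 0.161%. ALDH1L2 at 0.04 ± 0.24, SHMT1 at -0.06 ± 0.25 and ALDH18A1 at -0.19 ± 0.15 were not called between lines at 6 days. The PSPH call between durations was lost without DMSO 3-day replicate 2 (-0.84) or STM2457 6-day replicate 1 (-0.83). Between lines at 6 days PHGDH and PSPH were lost in 4 of 8 refits with 1 library left out (-0.44 to -0.33 and -0.86 to -0.77), NGP DMSO replicate 2 among them for both, and PYCR1 without NGP STM2457 replicate 2 (-0.60). With ERCC scaling 8 enzymes were called in Kelly for the difference between durations, all more negative at 6 days, where the median of all genes moved to -0.62, and 4 for the difference between lines at 6 days. These comparisons share the NGP DMSO 6-day libraries at 0 h with the comparison of STM2457 and DMSO, and do not support one another.

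The same comparison was made at the later times, each with its own libraries. At 3 h of actinomycin D, where the NGP DMSO 6-day libraries also stand apart, 8 of 10 enzymes were lower under STM2457 in NGP at 6 days and 1 was higher, against 8.64% of all genes. ASNS was at -2.10 ± 0.11, PSAT1 at -1.67 ± 0.09 and SHMT1, the higher one, at 0.49 ± 0.16. Only the 6 h comparison uses none of the libraries that stand apart, though its DMSO pair may have been high before. There the count was 4 lower, against 9.16% of all genes: SHMT2 (-0.54 ± 0.08), ASNS (-0.51 ± 0.11), PYCR1 (-0.45 ± 0.11) and MTHFD2 (-0.31 ± 0.08). PSAT1 was then at -0.11 ± 0.09 and PSPH at -0.08 ± 0.16. The other comparisons moved less between times, and ASNS was at -0.48 and -0.65 in Kelly at 3 days, -1.13 and -1.18 in Kelly at 6 days and -0.47 and -0.47 in NGP at 3 days, at 3 h and 6 h in turn.

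Actinomycin D tests how long existing transcripts last. In DMSO the 6 h difference of MYCN, a short-lived transcript, was -3.67, -2.79, -3.34 and -3.16. JUN, also short-lived, was at -2.33, -1.93, -2.05 and -3.41. GAPDH and ACTB, which are long-lived, were higher relative to the typical gene by 0.71 to 1.11. Positive values below thus stand for transcripts lost more slowly than most.

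In 3 of the 4 DMSO series (both in Kelly, and NGP at 3 days), 8 of 10 enzymes were called higher at 6 h than at 0 h relative to the typical gene, and none was lower. Of all genes 30.1%, 26.5% and 37.4% were called there, in either direction. The 10 enzymes had medians of 0.48, 0.51 and 0.65, and PSPH and SHMT1 were the members not called in each. The largest were PYCR1 in the 3-day Kelly series (0.80 ± 0.12), ALDH1L2 in the 6-day Kelly series (0.66 ± 0.19) and MTHFD2 in NGP (0.83 ± 0.08). ERCC scaling moved the median of all genes to -0.34, -1.18 and -0.81. The enzymes' median was 0.39, 0.41 and 0.66 above it, a distance that a scaling of whole libraries does not test. On the ERCC scale the count was 1 higher, 10 lower and 2 lower in these series. Leaving out 1 library ended some of these calls. In Kelly at 3 days they were ALDH1L2 (0.42 to 0.55, in each of 4 refits; limma-voom lost it too, at 0.49), ASNS (0.35 without 0 h replicate 1), PSAT1 (0.44 without 0 h replicate 2) and ALDH18A1 (0.21 without 6 h replicate 2). In Kelly at 6 days they were PSAT1 (0.34 without 0 h replicate 2, 0.33 without 6 h replicate 1) and ALDH1L2 (0.58 without 0 h replicate 2, 0.52 without 6 h replicate 2), and in NGP at 3 days ALDH1L2 (0.41 without 0 h replicate 2).

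NGP DMSO at 6 days went the other way. There 7 of 10 enzymes were lower at 6 h than at 0 h relative to the typical gene and 1 was higher, against 36.7% of all genes called. ASNS was at -1.03 ± 0.10, PSPH at -0.89 ± 0.15, PSAT1 at -0.88 ± 0.09 and ALDH1L2 at -0.58 ± 0.13, while ALDH18A1, the higher one, was at 0.52 ± 0.09. The PYCR1 call (-0.30 ± 0.11) was lost without 0 h replicate 1 (-0.33), 0 h replicate 2 (-0.27) or 6 h replicate 1 (-0.18), and PHGDH (-0.26 ± 0.07) without 0 h replicate 2 (-0.13). SHMT2 (-0.17 ± 0.08) was called lower without 0 h replicate 1 (-0.28), and SHMT1 (0.33 ± 0.16) higher without 0 h replicate 2 (0.54). With ERCC scaling all 10 were called lower. The enzymes' median was -0.26 relative to that of all genes, a distance that the scaling does not test.

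**Figure D3:**
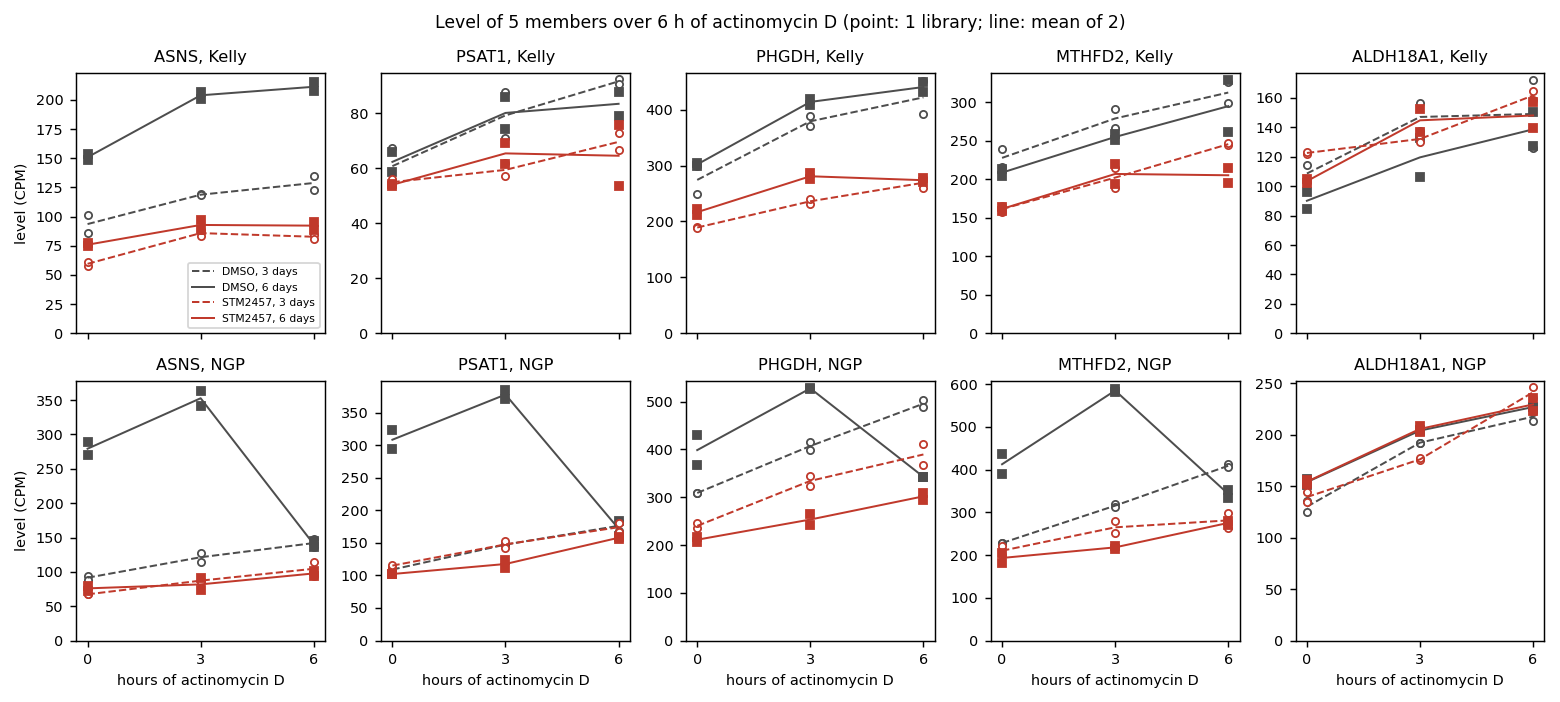
Level in CPM (vertical axes, each from 0) of ASNS, PSAT1, PHGDH, MTHFD2 and ALDH18A1 at 0, 3 and 6 h of actinomycin D (horizontal axis), with Kelly in the upper and NGP in the lower row. Points are libraries, open at 3 days and filled at 6 days, and lines join the means of 2; in NGP the DMSO 6-day line lies high at 0 and 3 h and lower at 6 h for the first 4 enzymes but not for ALDH18A1.

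The levels at each time were as follows. ASNS in NGP DMSO at 6 days read 289 and 269.8 CPM at 0 h, 364 and 342 at 3 h and 144 and 136 at 6 h. The 3 h libraries thus lay above the 0 h ones, and the 6 h libraries were at the level of the DMSO 3-day libraries at 6 h (148 and 136). PSAT1 read 323 and 294, then 385 and 370.5, then 161 and 183 CPM, against 168 and 184 at 6 h in DMSO at 3 days. PSPH read 90.4 and 92.3, 116 and 114 and 46.7 and 54.6 CPM. From 0 to 3 h the differences were 0.32 ± 0.10 for ASNS, 0.27 ± 0.09 for PSAT1 and 0.31 ± 0.15 for PSPH.

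From 3 to 6 h, in a comparison added after the values had been seen, 8 of 10 enzymes were lower in NGP DMSO at 6 days, against 13.9% of all genes. They were ASNS (-1.35), PSPH (-1.20), PSAT1 (-1.16), ALDH1L2 (-0.98), MTHFD2 (-0.79), PHGDH (-0.64), PYCR1 (-0.57) and SHMT2 (-0.50). In NGP DMSO at 3 days 6 of 10 were higher over the same interval (8.61% of all genes called), from 0.25 for SHMT2 to 0.48 for ALDH1L2. In Kelly none was called at 3 days (1 at an unadjusted p under 0.05, 6.83% of all genes called by edgeR) or at 6 days (2 at an unadjusted p under 0.05, 4.51% of all genes). Each time point is a separate pair of libraries, so a fall by 6 h in these cells and a 6 h pair of cultures that never reached the high level cannot be told apart.

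In STM2457, 6, 5, 8 and 8 of 10 enzymes were called higher at 6 h than at 0 h relative to the typical gene, and none was called lower. Of all genes 26.9%, 26.4%, 32.5% and 32.1% were called. SHMT2 was at 0.60, 0.60, 0.81 and 0.53, and ALDH18A1, PHGDH, MTHFD2 and PYCR1 were also called in all 4. ALDH1L2 was called in none, at 0.28, 0.01, 0.17 and 0.25. Leaving out 1 library ended 3 calls in NGP at 6 days, those of ASNS (0.27 without 0 h replicate 2 or 6 h replicate 1), SHMT1 (0.39 and 0.43 without 0 h replicate 1 or 2, 0.15 without 6 h replicate 2) and PYCR1 (0.35 without 0 h replicate 2), and that of MTHFD2 in Kelly at 6 days (0.27 without 6 h replicate 2). It added PSPH in Kelly at 3 days (0.58 without 6 h replicate 2), and PSAT1 (0.47 without 6 h replicate 1) and SHMT1 (0.67 without 6 h replicate 2) in Kelly at 6 days. With ERCC scaling none of the 10 was called higher, and 8, 4, 3 and 2 were called lower.

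The decay difference is the 6 h change in STM2457 minus that in DMSO, so a positive value means a slower loss under STM2457 relative to the typical gene. In Kelly it was called for none of the 10 enzymes at 3 days (0 at an unadjusted p under 0.05) or at 6 days (1 at an unadjusted p under 0.05). By DESeq2 and by limma-voom the count was also 0. Of all genes 0.221% and 0.424% were called. With ERCC scaling, which moved the median of all genes to -0.37 at 3 days and 0.70 at 6 days, 4 enzymes were called lower at 3 days and 8 higher at 6 days. ASNS was at 0.01 ± 0.17 and -0.21 ± 0.17 in Kelly, PHGDH at -0.11 ± 0.12 and -0.21 ± 0.12, and the widest value was that of ALDH1L2 at 6 days (-0.65 ± 0.28). In NGP at 3 days MTHFD2 alone was called, and lower (-0.44 ± 0.11, adjusted p = 0.0221 by edgeR), against 0.703% of all genes. That call was lost in 4 of 8 refits with 1 library left out (-0.44 and -0.45 without DMSO 0 h replicate 1 or 2, -0.37 without STM2457 0 h replicate 2, -0.36 without STM2457 6 h replicate 1), and no enzyme was called with library size alone or ERCC as the scaling.

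In NGP at 6 days 8 of 10 enzymes had a positive decay difference that was called, against 2.54% of all genes. They were PSAT1 (1.48 ± 0.13, adjusted p = 1.24e-14 by edgeR), ASNS (1.37 ± 0.15), PSPH (1.25 ± 0.22), ALDH1L2 (0.82 ± 0.19), MTHFD2 (0.78 ± 0.11), PYCR1 (0.77 ± 0.16), PHGDH (0.74 ± 0.10) and SHMT2 (0.70 ± 0.11). SHMT1 at 0.08 ± 0.23 and ALDH18A1 at 0.02 ± 0.12 were not called. All 8 calls held in each of the 8 refits with 1 library left out. Each of these differences uses the NGP DMSO 6-day libraries at 0 h, which stand apart. Leaving out 1 of that pair keeps the other, so the refits do not test the calls against the pair.

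Measured at 3 h in place of 6 h, a comparison added after the values had been seen, the decay difference was called for no enzyme in any line or duration. In NGP at 6 days the values ran from -0.35 ± 0.19 for ALDH1L2 to 0.23 ± 0.23 for SHMT1, with ASNS at -0.22 ± 0.15 and PSAT1 at -0.08 ± 0.13. Of the 8 enzymes called at 6 h, 7 had a negative value at 3 h, and SHMT2 was at 0.04 ± 0.11. The median of all genes was -0.02. The 8 were picked by their positive values at 6 h, and both measures share the 0 h libraries, so these signs are a description only. Of all genes 0.0955%, 0.0358%, 0.0205% and 0.0750% were called at 3 h. By edgeR 1 enzyme in Kelly at 3 days and 1 in NGP at 6 days had an unadjusted p under 0.05, and 0 in the other comparisons.

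**Figure D4:**
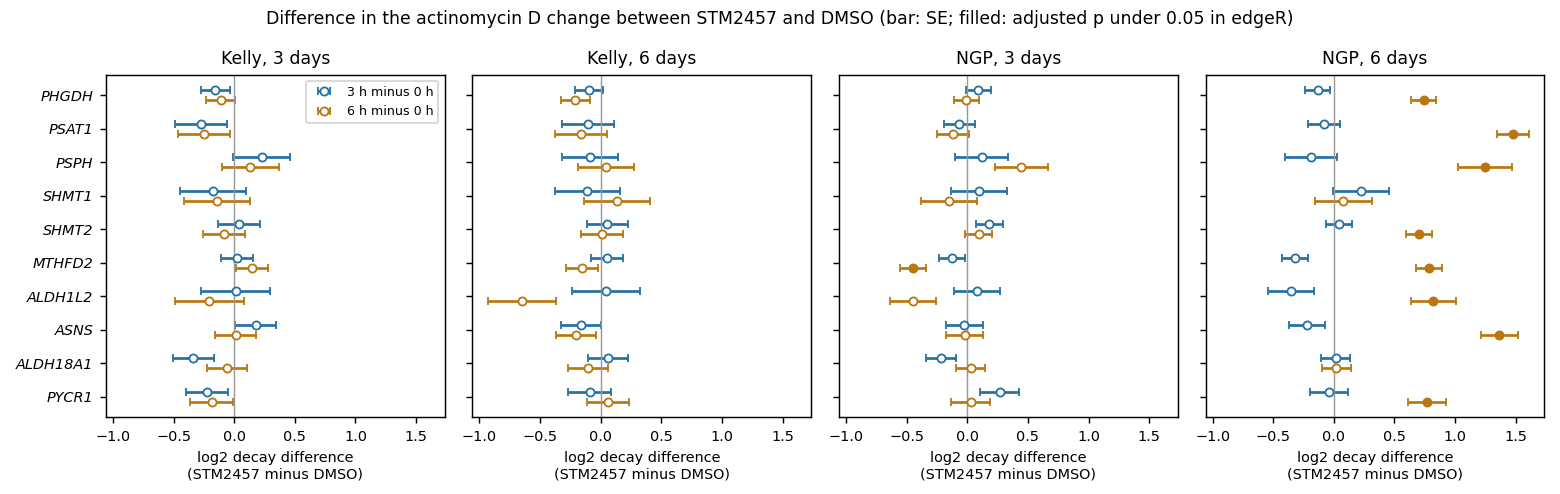
Decay difference on the log2 scale (horizontal axis, STM2457 minus DMSO) for each enzyme, from 3 h in blue and from 6 h in ochre, 1 panel for each line and duration. Bars are SEs and filled points passed an adjusted p of 0.05; in NGP at 6 days 8 ochre points lie between 0.70 and 1.48 while the blue points of the same enzymes lie between -0.35 and 0.04.

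ERCC spike-ins, synthetic RNAs present in every library, give a scale that does not fix the typical gene. On it the median gene kept 39.7 to 69.5% of its 0 h count after 6 h, by library. Group means of the enzymes were between 47.5 and 129% in 7 of the 8 combinations of line, treatment and duration. Means above the 0 h level under a block of transcription leave this scale uncertain. In NGP DMSO at 6 days the 8 enzymes above were at 87.4 to 102% after 3 h and at 23.5 to 42.8% after 6 h. The median gene there was at 44.6 and 43.3% after 6 h, so the upper end of the enzymes lay close to it. ASNS was at 90.7 ± 7.75% and then 23.5 ± 1.18% (SD, n = 2), against 81.6 ± 5.03% after 6 h in STM2457, and ALDH18A1 was at 69.1 ± 0.722% after 6 h in DMSO. When the spike-ins were added is not given in the sources used here.

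Known regulators of these genes were counted from a list of stress response factors, their kinases and MYCN, written with earlier results of these data known. Of 11 listed regulators 10 were tested, and 7 were lower under STM2457 at 0 h in NGP at 6 days, where the list's median was -1.53, against none in Kelly (2 at an unadjusted p under 0.05 at each duration, by edgeR) and 2 in NGP at 3 days. Of all genes 1.68%, 3.97%, 3.70% and 7.99% were called in these comparisons. ATF4 read 493 and 525 CPM in NGP DMSO at 6 days and 241 and 231 in STM2457 (-1.11 ± 0.09). Its differences at 0 h were -0.20, -0.27 and -0.16 in the other comparisons and not called. ATF5, a related stress factor, read 148 and 195 CPM in NGP DMSO at 6 days, 133 and 131 after 3 h and 19.9 and 30.6 after 6 h, against 6.77 and 3.36 in STM2457 at 0 h.

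TRIB3 and DDIT3, stress-induced targets of ATF4, were high in the same 2 libraries at 0 h. TRIB3 read 65.3 and 75.8 CPM there and at most 13.3 in the other 14 libraries, and DDIT3 52.7 and 47.9 and at most 11.3. In DMSO 8 of 10 regulators were higher at 6 than at 3 days in NGP and none was lower, against 12.1% of all genes. MYCN, the amplified oncogene, was at -0.08 ± 0.06 under STM2457 in NGP at 6 days and not called, and its only call at 0 h was -0.25 ± 0.06 in NGP at 3 days. The decay difference of ATF4 was -0.44, -0.76, -0.65 and 0.65, all but the first called, so its sign in NGP at 6 days was opposite to that in the others. That value too uses the NGP DMSO 6-day libraries at 0 h, which stand apart. The part of these regulators in the levels of the enzymes was not tested.

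Other genes of the same pathways, listed with earlier results of these data known, were counted in the same fits. Of 27 further serine, glycine and folate genes tested in each line, MTHFD1 alone was lower after 3 days in Kelly (-0.35) and in NGP (-0.33). After 6 days 2 were higher in Kelly (GGH, 0.58, and TYMS, 0.44), and in NGP 1 was higher and 3 were lower. The shares of all genes called were 1.68%, 3.97%, 3.70% and 7.99%. The list's median was -0.01, 0.12, -0.10 and 0.00. The 4 in NGP at 6 days were CTH (-1.52), which makes cysteine, MTHFD1L (-0.79), the mitochondrial formyltetrahydrofolate synthetase, MAT2A (-0.28), which makes S-adenosylmethionine, and TYMS (0.66), thymidylate synthase, the one that was higher. Of 14 proline, glutamate and aspartate genes, 1, 1, 2 and 3 were lower in the same order of comparisons and none was higher, with medians of -0.19, -0.01, -0.11 and -0.10. Those in NGP at 6 days were GPT2 (-2.13), GOT1 (-1.12) and ASS1 (-1.03), and ASS1, argininosuccinate synthase, was called in all 4 (-1.03, -0.34 and -0.46 in the others). Over 6 h of actinomycin D in DMSO, 8, 10, 9 and 8 of the 27 were higher relative to the typical gene and 3, 0, 0 and 3 lower, and 4, 5, 5 and 5 of the 14 were higher and 0, 1, 0 and 2 lower. Of all genes 30.1%, 26.5%, 37.4% and 36.7% were called in either direction. For the decay difference the 2 lists had 1 and 3 members called in NGP at 6 days, all positive, against 2.54% of all genes: MTHFD1L (0.63), GPT2 (1.18), GOT1 (1.07) and ASS1 (0.82).

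Across the 16 libraries at 0 h, with each line's mean removed, the 8 enzymes called in NGP at 6 days were correlated with one another. They were picked from these same libraries, so this is a description only. Pearson's r over their 28 pairs was 0.69 to 0.97, and without the 2 NGP DMSO 6-day libraries 0.25 to 0.92 over 14 libraries. The lowest of these was PSAT1 with SHMT2. SHMT1 ran against the 8, with r of -0.76 to -0.53 over 16 and -0.78 to -0.30 over 14 libraries. ALDH18A1 had r of -0.36 to 0.17 with them over 16 libraries and -0.74 to -0.44 over 14, so its relation to them changed with those 2 libraries.

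Likeness was ranked over the 9579 genes whose mean reached 10 CPM. The 5 most like ASNS were PYCR1 (r = 0.97), PSPH (0.96), TSEN15 (0.96), EIF1 (0.96) and DDIT4 (0.96), so 2 of the 5 are members here. Those most like PHGDH were PSPH (0.92), AARS1 (0.92), NDUFA3 (0.90), YARS1 (0.90) and MAPK12 (0.89), of which AARS1 and YARS1 charge tRNAs with alanine and tyrosine. Those most like MTHFD2 were GARS1 (0.96), EIF2S2 (0.96), TARS1 (0.96), EPRS1 (0.95) and PLXNA1 (0.95), of which GARS1, TARS1 and EPRS1 are further aminoacyl-tRNA synthetases. Without the 2 NGP DMSO 6-day libraries these 15 values were 0.81 to 0.94.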

How the data were processed

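The authors deposited raw counts: fragments of paired-end alignments, assigned to exons and summed by gene name with featureCounts 1.5.3, per the file headers. The headers name GENCODE release 33 with 92 ERCC sequences and no option for strand, multi-mapping or overlap. FastQC 0.11.5, Trimmomatic 0.36, HISAT2 2.1.0 and the build GRCh38 (hg38) are named in the submitters' processing notes. Groups came from the sample titles.

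All tests used edgeR 4.0.16 under R 4.3.3 (quasi-likelihood test, TMM, filterByExpr with minimum count 10 and minimum total 15, Benjamini-Hochberg adjustment within each comparison, threshold 0.05). Each line was fitted with its 24 libraries (16759 genes in Kelly, 14661 in NGP), and differences between lines came from a joint fit (17343 genes). CPM use the joint TMM scale. Each SE is the size of the log2 change over the root of its F statistic. The script was tested on simulated data. The 24 planned comparisons were joined by 26 chosen after the values were seen.

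Members and lists were chosen with earlier results of these data known. Named genes were all 10 members, ATF4 and MYCN, up to 3 called genes of largest change per list, and the 5 genes most correlated with ASNS, PHGDH and MTHFD2. ATF5, TRIB3 and DDIT3 levels are given on top of that. Alternatives were RLE factors, library size, ERCC scaling, no filter, DESeq2 1.42.0, limma-voom (limma 3.58.1), compared groups only, a replicate block and leaving out each library. Depth was 11139550 to 21942238 fragments per library.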

Additional observations from a re-analysis of the deposited data

Results flagged for a closer look

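The effect of STM2457 at 0 h differed between durations in NGP for 8 enzymes, tested as an interaction by edgeR, with 6 days minus 3 days at -1.42 ± 0.15 for ASNS, -0.54 ± 0.10 for PHGDH, -1.66 ± 0.13 for PSAT1, -0.94 ± 0.22 for PSPH, -0.72 ± 0.11 for SHMT2, -0.96 ± 0.11 for MTHFD2, -1.04 ± 0.19 for ALDH1L2 and -0.80 ± 0.16 for PYCR1. It differed between lines at 6 days for 7 enzymes, with NGP minus Kelly at -0.89 ± 0.15 for ASNS, -0.44 ± 0.11 for PHGDH, -1.39 ± 0.17 for PSAT1, -0.87 ± 0.22 for PSPH, -0.88 ± 0.14 for SHMT2, -0.73 ± 0.12 for MTHFD2 and -0.70 ± 0.17 for PYCR1. Both sets share the 2 NGP DMSO 6-day libraries at 0 h. At 3 h of actinomycin D, where the NGP DMSO 6-day libraries also stand apart, the STM2457 difference in NGP at 6 days was -2.10 ± 0.11 for ASNS and -1.67 ± 0.09 for PSAT1, against -0.47 ± 0.11 and 0.00 ± 0.09 at 3 days. At 6 h, with libraries that do not stand apart, it was -0.51 ± 0.11 for ASNS and -0.11 ± 0.09 for PSAT1, against -0.47 ± 0.11 and -0.05 ± 0.09 at 3 days. Whether the 6 h DMSO pair at 6 days had been at the high level before is not known.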

How the results depend on the processing

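Over 1280 refits of a gene's difference with 1 library left out, 59 calls were lost, 8 were gained and no called difference changed sign. The number of enzymes called then ranged from 3 to 4 (Kelly, 3 days), 3 to 5 (Kelly, 6 days), 2 to 3 (NGP, 3 days) and 8 to 8 (NGP, 6 days) for STM2457 against DMSO at 0 h. It was 6 to 7, 6 to 8, 7 to 8 and 7 to 8 for the 6 h change in DMSO, 6 to 7, 5 to 6, 8 to 8 and 5 to 7 for that in STM2457, and 0 to 0, 0 to 0, 0 to 1 and 8 to 8 for the decay difference. It was 0 to 0 in Kelly and 7 to 8 in NGP for the difference of the effect between durations, 0 to 0 at 3 days and 5 to 7 at 6 days for that between lines, 2 to 4 and 8 to 10 for the lines in DMSO, and 1 to 2 (Kelly) and 8 to 8 (NGP) for the durations in DMSO. Leaving out 1 of the 2 NGP DMSO 6-day libraries at 0 h keeps the other, which is also high, so these refits do not test that pair. Without the filter on low counts and with only the compared groups in the fit, no count moved by over 1.5 times.

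The fit with the replicate block, which takes equal replicate numbers as pairs, called 4, 5, 4 and 8 enzymes for STM2457 against DMSO at 0 h and 0, 0, 1 and 8 for the decay difference, the same counts as without it, and changed none of the 240 calls. Same-numbered libraries deviated together with r of -0.04 to 0.05 in Kelly and -0.03 to 0.10 in NGP over 66 pairs of groups each, none over 0.1. No common deviation was thus seen, and whether same-numbered libraries share a culture or a batch is not given.

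Some counts moved with the scaling or the test. With library size alone 5 enzymes (in place of 8) were called for the 6 h change in DMSO in Kelly at 3 days, 3 (5) for that in STM2457 in Kelly at 6 days and 0 (1) for the decay difference in NGP at 3 days. Limma-voom called 2 (4) for STM2457 in NGP at 3 days, and both RLE factors and DESeq2 called 5 (3) for the lines at 3 days. ERCC scaling called 2 (4) for STM2457 at 3 days in each line. For the 6 h change in DMSO at 3 days it called 1 (8) for Kelly and 2 (8) for NGP, and in STM2457 3 (8) and 2 (8) in NGP at 3 and 6 days. For the decay difference it called 4 (0), 8 (0) and 0 (1) for Kelly at 3 and 6 days and for NGP at 3 days. It called 8 (0) for durations in the Kelly line, 9 (3) for the lines at 3 days, 4 (7) for the effect between lines at 6 days and 6 (3) for DMSO durations in Kelly.

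Changes of sign with ERCC scaling are listed only for differences called with TMM or with ERCC scaling. Those called with neither are left out. The listed differences were, for the 6 h change in DMSO, in Kelly at 6 days ASNS (-0.80), PHGDH (-0.74), PSAT1 (-0.86), PSPH (-1.08), SHMT1 (-1.02), SHMT2 (-0.68), MTHFD2 (-0.79), ALDH1L2 (-0.61), ALDH18A1 (-0.66) and PYCR1 (-0.63), in NGP at 3 days ASNS (-0.18), PHGDH (-0.13), PSAT1 (-0.12), PSPH (-0.64), SHMT1 (-0.57), SHMT2 (-0.086), ALDH1L2 (-0.18), ALDH18A1 (-0.068) and PYCR1 (-0.20), and in NGP at 6 days SHMT1 (-0.72) and ALDH18A1 (-0.53). In STM2457 they were in Kelly at 3 days ASNS (-0.36), PHGDH (-0.33), PSAT1 (-0.50), PSPH (-0.44), SHMT2 (-0.24), MTHFD2 (-0.23), ALDH1L2 (-0.56), ALDH18A1 (-0.44) and PYCR1 (-0.23), in Kelly at 6 days ASNS (-0.30), PHGDH (-0.25), MTHFD2 (-0.24), ALDH1L2 (-0.56) and ALDH18A1 (-0.069), in NGP at 3 days ASNS (-0.054), PSAT1 (-0.089), PSPH (-0.044), SHMT1 (-0.58), MTHFD2 (-0.27), ALDH1L2 (-0.48) and PYCR1 (-0.030), and in NGP at 6 days ASNS (-0.29), PHGDH (-0.14), PSAT1 (-0.029), SHMT1 (-0.22), SHMT2 (-0.10), MTHFD2 (-0.15), ALDH1L2 (-0.38), ALDH18A1 (-0.085) and PYCR1 (-0.16). The decay difference in Kelly at 6 days changed sign for ASNS (0.49), PHGDH (0.49), MTHFD2 (0.55) and ALDH18A1 (0.59), the difference between durations in Kelly for PHGDH (-0.57), SHMT2 (-0.63), MTHFD2 (-0.49) and ALDH18A1 (-0.60), and the lines at 3 days for ASNS (0.38). ERCC scaling takes the loss of all transcripts into the value: the median of all genes was then -0.34 to -1.18 for the 6 h change in DMSO and -0.45 to -0.72 in STM2457.

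Other times, chosen after seeing the data, called 4 (8) enzymes for STM2457 at 6 h in NGP at 6 days, 3 (8) for the 3 h change in STM2457 there, and 0 (1) and 0 (8) for the decay difference at 3 h in NGP at 3 and 6 days. Changes of sign are again listed only for differences called at 3 h or at 6 h. The 3 h change in DMSO had the other sign for ALDH1L2 in Kelly at 3 days (-0.094) and in NGP at 6 days for ASNS (0.32), PHGDH (0.39), PSAT1 (0.27), PSPH (0.31), SHMT2 (0.32), MTHFD2 (0.48), ALDH1L2 (0.40) and PYCR1 (0.26). The decay difference at 3 h had the other sign in NGP at 6 days for ASNS (-0.22), PHGDH (-0.13), PSAT1 (-0.081), PSPH (-0.19), MTHFD2 (-0.32), ALDH1L2 (-0.35) and PYCR1 (-0.039), none of which was called at 3 h. The cause of these changes was not tested. With 2 libraries a group, differences of the less abundant SHMT1, ALDH1L2 and PSPH carry SEs of 0.13 to 0.20 at 0 h, against 0.07 to 0.08 for PHGDH.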
